A study of Mus musculus with 4 samples.

Results

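The replication-dependent histone genes were followed in the mouse colon through the array probes whose gene name begins with *Hist1h*, *Hist2h*, *Hist3h* or *Hist4h*. Of 41174 non-control probes, 47 carried such a name, for 38 genes: 7 probes for the linker histone H1, 17 for H2A, 12 for H2B, 3 for H3 and 8 for H4. There were 2 dual-color experiments, each with 2 arrays on which the dyes were exchanged. In the first, colon RNA of *Myh11CreErt2/Rspo3* fl/fl mice (*Rspo3* KO) was hybridised against that of *Myh11CreErt2/Rspo3* +/+ littermates (control), 1 mouse per channel and 2 pairs of mice. Both genotypes were C57BL/6 males aged 6 to 8 weeks that carried the Cre transgene and had received tamoxifen (4 mg per 25 g body weight), and the arrays refer to 2 weeks afterwards. Cre is active only in *Myh11*-expressing cells such as smooth muscle and myofibroblasts, so that the deletion is limited to these cells. In the second, live epithelial cells of *Axin2CreErt2/Rosa26-tdTomato* males aged 6 to 8 weeks were used. They were sorted 24 h after the same dose of tamoxifen into tdTomato+ (Axin2+) and tdTomato- (Axin2-) cells and pooled from 3 mice. Both of these arrays hold the same pair of pools, which is 1 replicate and allows no test.

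Histones are the proteins around which DNA is wound: H2A, H2B, H3 and H4 form the core of the nucleosome and H1 binds the linker between nucleosomes. The clustered genes are transcribed mainly in S phase, when new DNA has to be packaged, and their mRNAs end in a conserved stem-loop bound by Slbp in place of a poly(A) tail. Some of them also give polyadenylated transcripts that run past the stem-loop, as is known for differentiated cells. The RNA was amplified here from a primer with an oligo-dT stretch, and how far each kind of transcript was copied was not measured.

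Most probes for the core histones lay in coding sequence that is nearly the same from gene to gene. Sequences are shown for pairs in which this matters for reading the values, with the longest run shared by the pair in capitals. All are 60 bases long and were read from the array files, with mm9 positions. For H4, the probe of *Hist1h4d* (chr13:23673665-23673724, plus strand) and that of *Hist1h4f* (chr13:23643249-23643308, minus strand) shared 50 bases.
Hist1h4d: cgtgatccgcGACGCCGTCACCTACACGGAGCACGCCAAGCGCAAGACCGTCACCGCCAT
Hist1h4f: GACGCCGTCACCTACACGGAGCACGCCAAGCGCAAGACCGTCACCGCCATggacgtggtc
For H2B, the probe of *Hist1h2bk* (chr13:22127928-22127987, plus strand) and that of *Hist1h2bm* (chr13:21814139-21814198, plus strand) shared 52 bases.
Hist1h2bk: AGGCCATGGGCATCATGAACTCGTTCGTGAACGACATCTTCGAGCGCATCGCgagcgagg
Hist1h2bm: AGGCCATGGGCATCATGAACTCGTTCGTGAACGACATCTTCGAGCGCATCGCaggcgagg
For H2A, the probe of *Hist1h2af* (chr13:23625800-23625859, plus strand) and that of *Hist1h2ak* (chr13:21845637-21845696, minus strand) shared 40 bases.
Hist1h2af: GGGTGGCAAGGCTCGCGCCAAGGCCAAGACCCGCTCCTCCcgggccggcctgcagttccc
Hist1h2ak: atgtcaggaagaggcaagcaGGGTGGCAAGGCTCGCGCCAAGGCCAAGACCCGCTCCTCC

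In all, 14 pairs of probes shared a run of at least 20 bases, and these pairs joined 16 probes into 6 families. The array files carried 2 versions of the annotation, and the listed position of 11 of the 47 probes differed between them. The 4 printed probes of *Hist1h4d*, *Hist1h4f*, *Hist1h2bk* and *Hist1h2af* are among these 11, and the positions given are those of the version used for the *Rspo3* KO arrays. The version of the Axin2 arrays lists the printed *Hist1h4d* probe at chr13:21842121-21842180 and that of *Hist1h4f* at chr13:21842111-21842170. It lists the *Hist1h2af* probe at chr13:21845617-21845676. By that version the H4 pair overlaps at a single locus, as does the H2A pair, and the shared run is this overlap. Signals of such genes cannot be told apart by hybridisation, so a gene name below is that of the probe, and the values of a family are not independent of each other.

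A second group of probes lay near or past the end of the short gene models, or in longer gene models. The conserved stem-loop core TTTTCAGAG was present in 2 of the 47 probes and, on either strand, in 74 of all 41174 probes (0.18%). The stretches around it are shown, with the core in capitals.
Hist1h2ae: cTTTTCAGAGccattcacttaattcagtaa
Hist1h3a: accaaaggctcTTTTCAGAGccaca
To describe position, a probe was called a gene-body probe if it ended within a RefSeq gene model (GRCm38.p6) of at most 1000 bases. All others were called downstream probes, which includes probes within longer gene models, such as those of *Hist1h2bc*, *Hist1h2bq* and *Hist2h2be*. This split was made after the values had been seen and is used without a test. It gave 30 gene-body probes, with 40% to 75% G and C, and 17 downstream probes, with 23.3% to 45%. Base composition therefore moved with the kind of probe, and its part in the ratios was not tested.

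A probe counted as measured where the software marked 1 or both of its channels as well above background on each array of the experiment, which held for 41 histone probes (34 genes) on the Axin2 arrays and for 36 (31 genes) on the *Rspo3* KO arrays. All values below are log2 ratios after background correction and loess normalisation, with Axin2+ cells or *Rspo3* KO on top. The sorted cells were checked first. All 5 measured probes of crypt base genes (*Lgr5*, *Axin2*, *Smoc2*, *Ephb3*) were more than 1.5-fold higher in Axin2+ cells, at 1.04 to 1.53. All 6 probes of surface enterocyte genes (*Krt20*, *Car4*, *Aqp8*, *Slc26a3*) were below 0 on each array, and their median was -2.88. *Epcam* was measured in both pools, at 0.03 on each array. Of 9 measured probes of epithelial genes, 3 were past 1.5-fold lower in Axin2+ cells, against 5.80% of all probes, and 0 were higher. On both arrays 5 of the 9 were below 0 and 3 were above 0. Neither of the *Rspo3* probes was measured on the *Rspo3* KO arrays, so the deletion could not be checked there. The crypt base genes were lower in both pairs, with medians of -1.32 and -1.01.

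Many histone probes read higher in Axin2+ than in Axin2- cells, though most of those past 1.5-fold belong to the families of shared sequence and are not separate signals. Of 41 measured histone probes, 18 (43.9%) were more than 1.5-fold higher on average with the same sign on both arrays, against 7.04% of all 24123 measured probes, and 1 was lower, against 5.80%. The ratio was above 0 on both arrays for 28 histone probes (42.5% of all probes) and below 0 for 8 (39.2%). The median was 0.55 on array 1 and 0.44 on array 2, where that of all probes was 0.03 and -0.01. With median centring in place of loess no histone probe met the 1.5-fold rule in either direction. The median of the array means of the histone probes was then 0.21, in place of 0.48. Under that setting the median of all measured probes was 0.70 on array 1 and -0.63 on array 2, of opposite sign as the dyes were. With the software's own log ratio, 11 histone probes were higher and 4 lower. The shares of all probes that met the rule under these other settings were not counted, so these counts have no reference. More cells of a type and more RNA per cell cannot be told apart in such bulk samples.

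**Figure D1:**
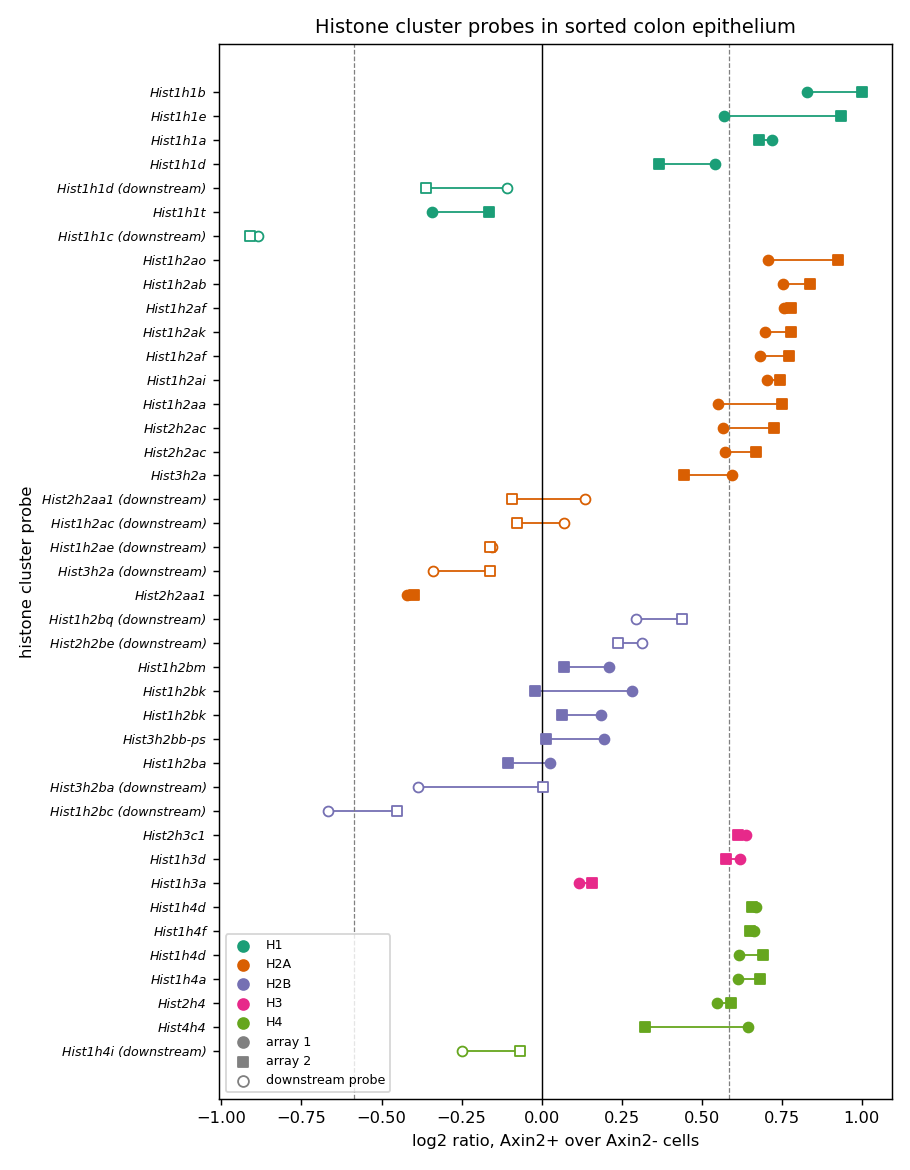
Log2 ratio of Axin2+ over Axin2- cells (x axis) for the 41 measured histone cluster probes (y axis, by gene), with circles for array 1 and squares for array 2 of the dye swap and colours for the histone class. Open symbols are downstream probes, dashed lines mark 1.5-fold, and most H1, H2A, H3 and H4 gene-body probes sit to the right of 0 while H2B gene-body probes lie close to it.

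Among the linker histones, *Hist1h1b* had the highest ratio of all members. It was 0.83 on array 1 and 1.0 on array 2, from normalised intensities of 2871 and 2464 in Axin2+ cells and of 1616 and 1232 in Axin2- cells. *Hist1h1e* followed at 0.57 and 0.93, and *Hist1h1a* at 0.72 and 0.68. These 3 probes were the only H1 probes past 1.5-fold upwards. *Hist1h1t*, the testis linker histone, was dim and had -0.34 and -0.16.

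*Hist1h1c* went the other way. Its probe, which lies downstream of the short gene model (chr13:23832018-23832077, plus strand), read -0.89 and -0.91, the lowest ratios of all 41 probes. The intensities were 2119 and 2298 in Axin2+ cells and 3919 and 4322 in Axin2- cells. Both arrays read the same pools, so this gap does not measure a spread between mice. The *Hist1h1c* probe was the only histone probe past 1.5-fold downwards. With median centring its mean was -1.13, with opposite signs on the 2 arrays.

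The H2A probes lay close together. Of 11 gene-body probes, 9 were past 1.5-fold and 10 were above 0 on both arrays, with medians of 0.68 and 0.75. *Hist1h2ao* was highest, at 0.71 and 0.93, followed by *Hist1h2ab* at 0.75 and 0.84. The 3 probes from the start of the coding sequence, which form 1 family, gave 0.76 and 0.78 for *Hist1h2af*, 0.70 and 0.78 for *Hist1h2ak* and 0.70 and 0.75 for *Hist1h2ai*. The second *Hist1h2af* probe read 0.68 and 0.77. Both *Hist2h2ac* probes, which shared 51 bases, read 0.57 and 0.67, and 0.57 and 0.73. The exception among the gene-body probes was *Hist2h2aa1*, at -0.42 and -0.40.

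H4 and H3 gave ratios of like size. The 6 gene-body probes of H4 were all above 0 on both arrays, with medians of 0.63 and 0.65, and 4 of them passed 1.5-fold. *Hist1h4d* was highest, at 0.67 and 0.66, and its second probe read 0.62 and 0.69. *Hist2h4* read 0.55 and 0.59. *Hist4h4*, which lies apart from the large clusters on chromosome 6, read 0.64 and 0.32. Of the 3 H3 probes, *Hist2h3c1* (0.64 and 0.61) and *Hist1h3d* (0.62 and 0.58) passed 1.5-fold, and *Hist1h3a*, whose probe spans the stem-loop, read 0.12 and 0.16.

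H2B stood apart in these values. None of its 9 measured probes passed 1.5-fold. The 5 gene-body probes had medians of 0.19 on array 1 and 0.01 on array 2 and means between -0.04 and 0.14. The pair printed above read 0.19 and 0.06 for *Hist1h2bk* and 0.21 and 0.07 for *Hist1h2bm*. The probe of the pseudogene *Hist3h2bb-ps*, of the same family, read 0.19 and 0.01. The other *Hist1h2bk* probe read 0.28 and -0.02, and *Hist1h2ba*, a histone of the testis, 0.03 and -0.11. The intensities of the *Hist1h2ba* probe were 1544 to 1662, and whether it also read other H2B genes was not tested. H2A and H2B, which enter the nucleosome as a dimer, read differently on these arrays. With median centring the median of the array means was -0.17 for H2B, against 0.22 for H4 and 0.26 for H2A, so that its sign depended on the scaling while it remained the lowest class. The difference between classes could not be tested with 1 replicate, and 3 of the 5 probes share sequence.

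The kind of probe, gene-body or downstream, went along with the ratio. The 30 gene-body probes had a median of 0.60 on array 1 and 0.65 on array 2, and 18 of them were past 1.5-fold upwards. The 11 measured downstream probes had medians of -0.15 and -0.09, none was past 1.5-fold upwards, and 6 were below 0 on both arrays. With median centring the medians of the array means were 0.23 and -0.13. This comparison was made after the values had been seen.

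Within genes that had both kinds of probe measured, the same contrast was present in *Hist1h1d* and *Hist3h2a* but not in *Hist2h2aa1*. For *Hist1h1d*, the gene-body probe (chr13:23647452-23647511) read 0.54 and 0.37, and the downstream probe (chr13:23649203-23649262) read -0.11 and -0.36, though close to background with intensities of 93.0 to 119. For *Hist3h2a*, the gene-body probe (chr11:58768387-58768446) read 0.59 and 0.44, and the downstream probe (chr11:58768954-58769013), with intensities of 1067 to 1349, read -0.34 and -0.16. In both genes the 2 probes did not overlap in their values, over 2 readings of the same pools. *Hist2h2aa1* did not follow this order, since its downstream probe read 0.14 and -0.09 near background. Among the other downstream probes, *Hist1h2bc* read -0.67 and -0.45, short of a mean past 1.5-fold, with intensities of 5514 and 6197 in Axin2+ cells against 8763 and 8476. With median centring its ratios were 0.35 and -2.08. *Hist1h2bq* was highest of them, at 0.30 and 0.44, though near background with intensities of 71.6 to 113, and *Hist2h2be* read 0.31 and 0.24. *Hist1h4i* read -0.25 and -0.07, *Hist1h2ae* -0.15 and -0.16 and *Hist3h2ba*, which lies near *Hist3h2a* on chromosome 11, -0.39 and 0.00.

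**Figure D2:**
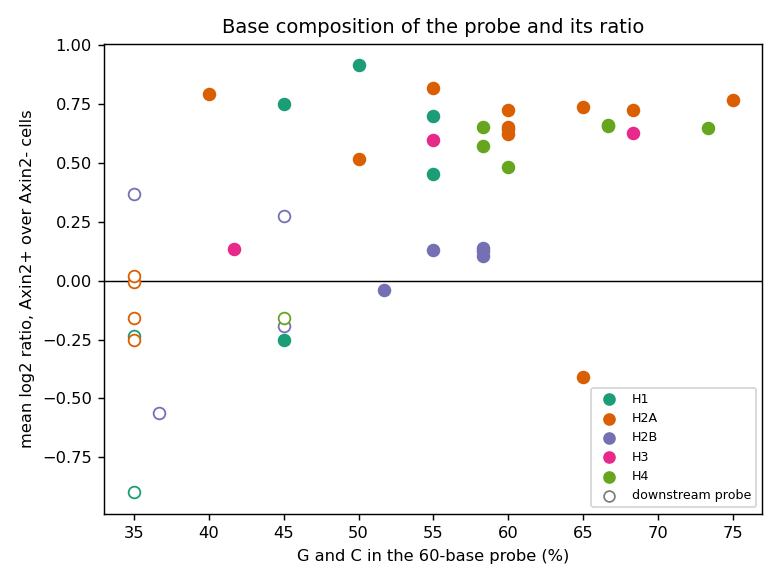
Mean log2 ratio of Axin2+ over Axin2- cells (y axis) against the share of G and C in each of the 41 measured probes (x axis, percent), coloured by class. Open symbols are downstream probes, which hold at most 45% G and C. The H2B gene-body probes lie below those of H4 and below those of H2A except *Hist2h2aa1*.

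In *Rspo3* KO colon, no histone probe changed by the test. Limma with Benjamini-Hochberg adjustment over 22574 probes called 0 of 36 measured histone probes, against 0.159% of all probes, and 4 had an unadjusted p below 0.05, against 4.40% of all. By the 1.5-fold rule, 1 histone probe was higher, against 1.75% of all probes, and 1 was lower, against 2.06%. The ratios had the same sign in both pairs for 16 probes, 10 above 0 (22.6% of all probes) and 6 below 0 (22.0%), and opposite signs for 20. The median was 0.33 in pair 1 and -0.20 in pair 2. In pair 1 alone 13 histone probes were past 1.5-fold higher and 3 lower, and in pair 2 alone 2 were higher and 3 lower, so that the direction of the median rested on which pair was used. Across the 36 probes the 2 pairs were not alike (Pearson's r = -0.14, given as a description, since the probes share sequences and arrays), as was the case over all probes (r = 0.02). On the Axin2 arrays, which repeat the same RNA, r was 0.93 over 41 histone probes.

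**Figure D3:**
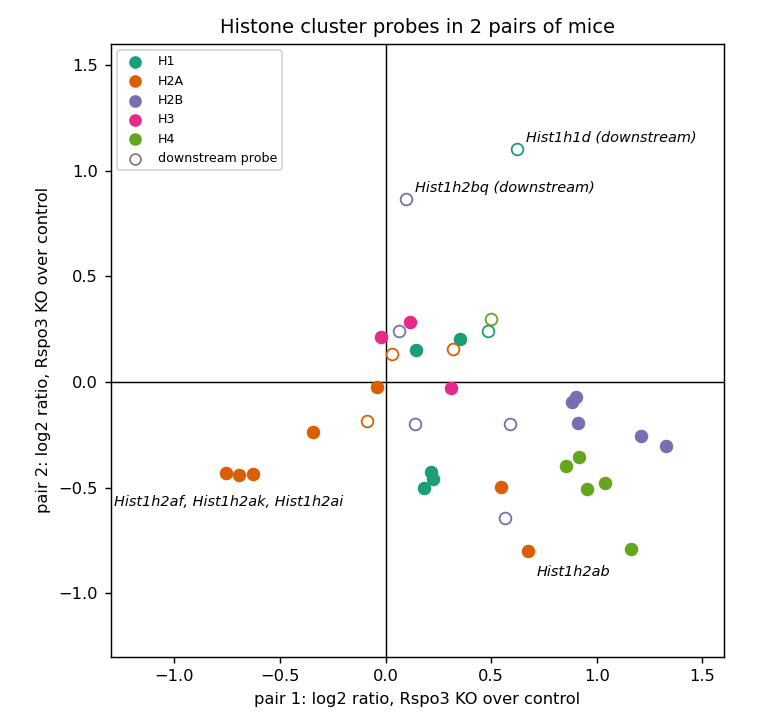
Log2 ratio of *Rspo3* KO over control in pair 1 (x axis) and pair 2 (y axis) for the 36 measured histone cluster probes, coloured by class, with open symbols for downstream probes. H4 and H2B gene-body probes fall in the lower right quadrant, and the 3 H2A probes of 1 family in the lower left.

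The gene-body probes of H4 and H2B differed between the pairs. All 5 measured H4 gene-body probes were higher in pair 1, at 0.86 to 1.16, and lower in pair 2, at -0.35 to -0.79. *Hist1h4d* read 0.86 and -0.40, and its second probe 1.16 and -0.79. The 5 H2B gene-body probes read 0.88 to 1.33 in pair 1 and -0.07 to -0.30 in pair 2, with *Hist1h2bk* at 1.33 and -0.30. *Hist1h2ab* (0.67 and -0.80) and *Hist2h2aa1* (0.55 and -0.49) had the same order. Since the *Rspo3* KO was labelled with Cy5 in pair 1 and with Cy3 in pair 2, a difference between the mice and one between the dyes cannot be told apart.

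Other members had ratios of the same sign in both pairs. The H2A probes of *Hist1h2af* (-0.76 and -0.43), *Hist1h2ak* (-0.69 and -0.44) and *Hist1h2ai* (-0.63 and -0.43) were lower in both, with unadjusted p of 0.031, 0.035 and 0.043, and none passed the threshold of 0.05 after adjustment in limma. They belong to 1 family of shared sequence and are not independent of each other. *Hist1h2af* was the one probe past 1.5-fold downwards, and with median centring its ratio was 0.16 in pair 1 and -1.18 in pair 2. The downstream probe of *Hist1h1d* was higher in both pairs, at 0.62 and 1.11, with a mean of 0.86, an unadjusted p of 0.0076 and an adjusted p of 0.61 in limma. Its intensities were 1852 and 1587 in *Rspo3* KO against 1204 and 738 in control. The gene-body probe of the same gene read 0.35 and 0.21. *Hist1h1c* read 0.48 and 0.24, and *Hist1h4i* 0.50 and 0.30. *Hist1h2bq*, near background with intensities of 89.6 to 164, read 0.10 and 0.87. The downstream probes as a group had medians of 0.32 in pair 1 and 0.16 in pair 2, and 7 of 11 were above 0 in both pairs. The H3 probes were close to 0, with *Hist2h3c1* at 0.11 and 0.28. For *Hist3h2a* the gene-body probe read -0.04 and -0.02 and the downstream probe 0.32 and 0.16. Very bright H2A and H4 probes (*Hist1h2aa*, *Hist1h2ao*, *Hist1h4f*, the second *Hist1h2af* probe and 1 of *Hist2h2ac*) have no mean over both pairs, since their spots were marked as outliers on at least 1 *Rspo3* KO array.

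Genes that serve histone supply gave a reference for these values. Of 28 measured probes for DNA replication genes, 14 were past 1.5-fold higher in Axin2+ cells, against 7.04% of all probes, and none was lower, with medians of 0.62 and 0.59. *Mcm4*, a helicase subunit, was highest, at 1.64 and 1.33, and *Ccne2* was lowest, at -0.12 and 0.16. Of 28 probes for histone chaperones, 8 were higher, led by *Nap1l1* (1.15 and 1.12), which carries H2A and H2B. *Chaf1a*, a subunit of the complex that deposits H3 and H4 at replication forks, read 0.83 and 0.67. Of 22 probes for histone mRNA synthesis and processing 1 was higher, a share below the 7.04% of all probes. It was that of *Slbp*, the stem-loop binding protein, at 0.74 and 0.55. *Npat*, a transcriptional activator of the histone clusters, read -0.13 and 0.10 on 1 probe and 0.11 and 0.22 on the other, and *Ncbp1* was lowest at -0.12 and -0.24. The replication-independent variants also had 1 of 22 probes higher, for *H3f3b* (0.48 and 0.80). The other probes of *H3f3b* read 0.10 and 0.40, and 0.39 and 0.46. The variant *H2afz* read 0.45 and 0.45 on 1 probe and 0.39 and 0.32 on the other. The 3 *H3f3a* probes lay between 0.48 and 0.73 on array 1 and between 0.34 and 0.43 on array 2. The linker variant *H1f0*, which is known from non-dividing cells, lay between -0.11 and -0.01 on array 1 and between -0.32 and -0.23 on array 2 over its 3 probes. The lowest variant probe was 1 of *H2afy*, at -0.20 and -0.78, whose other probes read 0.33 and 0.16, and 0.09 and -0.07.

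In *Rspo3* KO colon, limma called none of the probes in these 4 lists. The replication genes had 6 of 28 probes with a mean past 1.5-fold lower and the same sign in both pairs, against 2.06% of all probes, and none higher, with medians of -0.53 and -0.10. *Prim1*, a primase subunit, read -0.69 and -0.72 with an adjusted p of 0.74. *Pola1* read -0.61 and -0.86. The gene-body probes of H4 had medians of 0.95 in pair 1 and -0.48 in pair 2, and those of H2B 0.91 and -0.19. *Slbp* read 0.06 and -0.44. *H1f0* was positive in both pairs on each of its 3 measured probes, at 0.30 to 0.42 in pair 1 and 0.54 to 0.78 in pair 2. Of the chaperones, 1 probe had a mean past 1.5-fold lower, that of *Chaf1b*, at -1.20 and -0.08. The means of the pairs ranged from -0.74 to 0.25 for replication genes, from -0.64 to -0.02 for chaperones, from -0.41 to 0.11 for mRNA synthesis and processing, and from -0.56 to 0.57 for the variants.

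Markers of other cell types were read in the same arrays, where limma called 1 B cell probe and 1 epithelial probe. Of all measured probes, 22.6% were above 0 in both pairs and 22.0% below 0 in both. By the 1.5-fold rule 2.06% of all were lower. All 4 measured B cell probes had means past 1.5-fold lower in *Rspo3* KO, with medians of -2.19 and -1.39, and 1 *Ms4a1* probe was called (adjusted p = 0.033 in limma). The 4 measured T cell probes were below 0 in both pairs, with medians of -0.66 and -0.23. The 3 measured probes of surface enterocyte genes, for 2 of the 4 listed genes, had opposite signs in the pairs. Their medians were 0.68 in pair 1 and -0.53 in pair 2, and 12490 of all 22574 measured probes also had opposite signs. *Cdx2*, of the epithelial list, was called higher, at 2.33 and 1.91, while the other 4 measured probes of that list had opposite signs in the pairs and its medians were 0.10 and 0.07. Of 7 smooth muscle probes 5 were above 0 in both pairs, with medians of 0.24 and 0.21, and none passed 1.5-fold. Of 7 fibroblast probes 2 were above 0 in both, a share near that of all probes, with medians of 0.29 and 0.12, and none passed 1.5-fold. Of 5 macrophage probes 4 were above 0 in both, with medians of 0.18 and 0.09. The pair of general leukocyte probes had opposite signs in the pairs. The part of these cells in the histone ratios was not tested. On the Axin2 arrays the B cell probes had medians of -0.12 and -0.08.

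**Figure D4:**
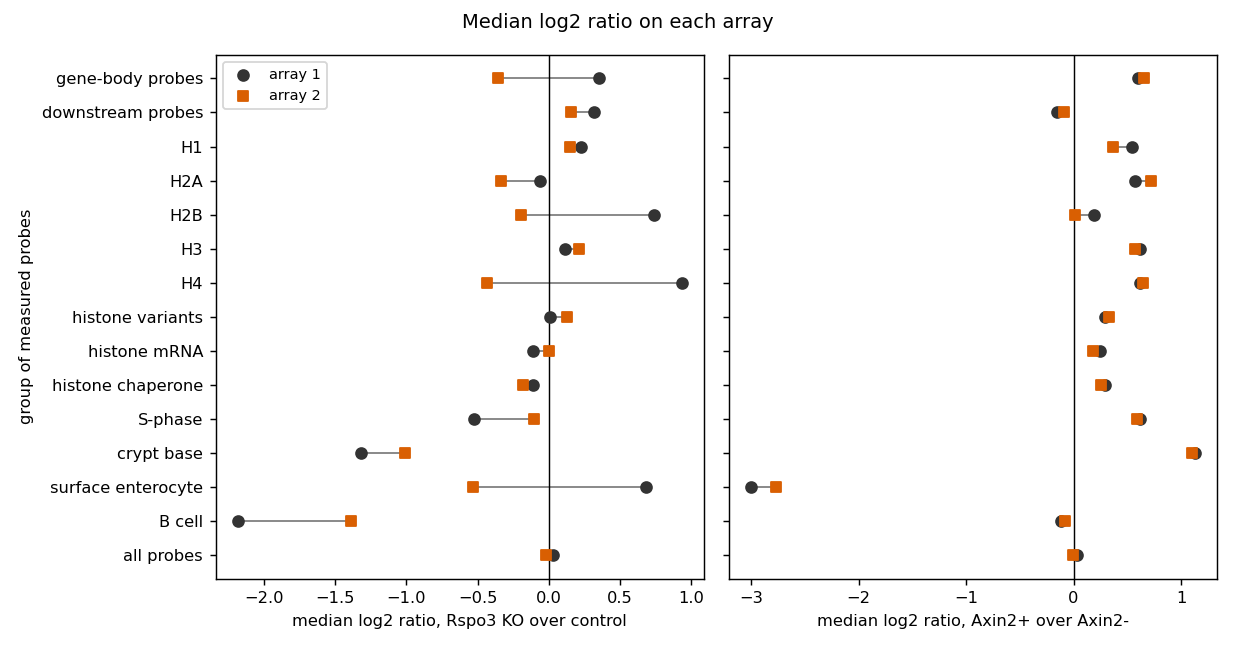
Median log2 ratio (x axes) of groups of measured probes (y axis) on array 1 (circles) and array 2 (squares), for *Rspo3* KO over control (left) and Axin2+ over Axin2- cells (right). On the left, H4 lies at 0.94 and -0.44 and H2B at 0.74 and -0.20, and on the right the arrays of the dye swap lie close together.

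The promoters of the histone genes were searched for 3 motifs. RefSeq promoters (GRCm38.p6, 250 bases before to 50 after the start) were matched for 32 of the 38 genes. The CCAAT motif, searched as CCAAT on both strands, was present in 29 of 32 (90.6%), against 37.4% of all 32851 promoters. It was found in all 8 H2B and all 11 H2A promoters but in 2 of 5 H4 promoters. The TATA motif, as TATAAA on both strands, was present in 20 of 32 (62.5%), against 13.6% of all. The octamer ATTTGCAT, on both strands, was present in 6 of 11 H2A and 4 of 8 H2B promoters and in 0 of 5 H4 promoters, against 1.74% of all promoters. The 250 bases before the start are shown for 1 H2B and 1 H4 gene, *Hist1h2bm* (chr13:21721794-21722043, GRCm38.p6, plus strand) and *Hist1h4d* (chr13:23581318-23581567, GRCm38.p6, plus strand), with these motifs on either strand in capitals.
Hist1h2bm promoter: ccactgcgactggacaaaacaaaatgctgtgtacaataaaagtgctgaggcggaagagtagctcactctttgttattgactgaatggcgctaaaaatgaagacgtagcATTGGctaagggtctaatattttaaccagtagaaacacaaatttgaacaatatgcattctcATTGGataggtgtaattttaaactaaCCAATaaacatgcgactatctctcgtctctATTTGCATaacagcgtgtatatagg
Hist1h4d promoter: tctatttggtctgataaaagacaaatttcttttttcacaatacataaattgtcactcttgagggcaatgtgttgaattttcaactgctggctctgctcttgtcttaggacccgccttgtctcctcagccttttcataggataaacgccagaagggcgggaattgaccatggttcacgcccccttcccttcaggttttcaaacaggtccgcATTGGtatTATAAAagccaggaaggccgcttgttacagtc
The H2B promoter holds the octamer and 3 CCAAT motifs, and the H4 promoter holds TATAAA and 1 CCAAT motif. The motifs are matches of letters and were not tested against the ratios.

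The members lay in 4 regions, 31 probes on chromosome 13, 9 on chromosome 3, 4 on chromosome 11 and 2 on chromosome 6, with no mm9 position listed for 1 probe. In Axin2+ cells, 15 of 29 measured probes on chromosome 13 and 3 of 7 on chromosome 3 passed 1.5-fold upwards, against 7.04% of all probes. The medians of the array means were 0.60 and 0.57. Many of these probes share sequence. Positions are those of the version used for the *Rspo3* KO arrays, and the other version lists 1 of the *Hist2h2ac* probes on chromosome 13 in place of 3. The 4 probes on chromosome 11, of which 3 were H2B or downstream probes of H2A, had a median of -0.04.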

How the data were processed

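Colon RNA was hybridised to 4 dual-color Agilent mouse arrays with 60-base probes, grouped by their labels. Labels and methods differ on the extraction kit and on colon or distal colon for the *Rspo3* KO arrays. For each spot and dye the authors deposited intensity values (mean signal and local background). The authors also deposited a log10 ratio (Cy5 over Cy3) from Agilent Feature Extraction, which was used as an alternative. The deposited table of the series holds the same log10 ratio, and the p-values of single arrays were not used here.

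Here, background correction used normexp (limma, version 3.58.1; offset 50), fitted without spots of outlying background, and loess within each array normalised the ratios. Control and outlier spots were left out, spots of a probe were averaged, and ratios were turned to *Rspo3* KO over control and Axin2+ over Axin2-. Between 53.1% and 60.3% of spots per channel were well above background, and precision is limited by having few arrays. The mean ratio of the *Rspo3* KO arrays was set against 0 in limma, with Benjamini-Hochberg adjustment and a threshold of 0.05. The test was tried on simulated data, where the probes it called held more unchanged ones than the threshold in most runs. RefSeq genes were matched to all 47 probes, 40 by accession and 7 by synonym. The values named are those of members past a threshold, the extremes of each class, genes with several probes, and genes outside the large clusters. The members, lists and thresholds were chosen with earlier results of these data known. Alternatives covered background, normalisation, filters, unit and threshold.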

Additional observations from a re-analysis of the deposited data

How the results depend on the processing

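The absence of called histone probes in *Rspo3* KO held in all 12 other settings, while the number of all probes called was 36 as reported, 101 with an offset of 16, 86 with the deposited log ratios, 82 in a fit over 4 arrays, 9 with median centring, 3 with means per gene, and 0 with normexp fitted to all spots or without a filter on dim probes. Histone probes past 1.5-fold higher in *Rspo3* KO numbered 3 with the software's log ratio and with the series table, 2 with the offset of 16, and 0 with means per gene or a 2-fold threshold. Those lower numbered 2 with the log ratio and the series table and 0 with median centring or 2-fold. With 1 array left out, between 2 and 13 were higher and 3 were lower, and the median lay between -0.20 and 0.33, reversed without pair 1. In Axin2+ cells, 11 were higher with the log ratio and the series table, and 0 with median centring or 2-fold. Those lower numbered 4 with the log ratio and the series table and 0 with median centring or 2-fold. With 1 array left out, 16 to 18 were higher and 1 to 2 lower, and the median lay between 0.44 and 0.55. The median was 0.21 with median centring and 0.28 without the filter on dim probes. The causes were not tested, and the shares of all probes past 1.5-fold were not counted under the other settings. Fitting normexp without only the non-uniform backgrounds was chosen after seeing the data and moved no count of histone probes. The test against 0 is itself paired, since it uses the ratio within each pair. Beyond it, no paired analysis was possible because no block is left to add.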
